A study of Homo sapiens with 8 samples.

Results

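The clustered histone genes were examined in LNCaP and DU145, established prostate cancer cell lines. LNCaP responds to androgen, and DU145 grows without it. Each line was transfected with an siRNA against TET2 (siTET2), with a control siRNA (siControl), with the microRNA miR-29b or with a negative control miRNA (nc), and total RNA was taken 72 hours later and read on expression arrays, 1 array per line and construct. All 8 cultures were thus transfected cells of their line, grown in RPMI medium with serum, and RNA was extracted with ISOGEN. TET2 encodes a dioxygenase that acts on methylated cytosines. With 1 siRNA against TET2, effects of losing TET2 and other effects of that siRNA cannot be told apart.

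Members were all probe sets whose gene symbol begins with H1-, H2AC, H2BC, H3C or H4C followed by a number, which gave 83 of 33297 probe sets. Of these, 60 carried 1 histone gene symbol, 20 carried several symbols and 3 carried the symbol of a pseudogene or an antisense RNA. The probe sets of H4C14 and H4C15 held identical values and were counted once, so that 59 genes of 18417 were described: 9 of class H1, 14 of H2A, 16 of H2B, 8 of H3 and 12 of H4. By their positions, 49 lay in the large cluster on chromosome 6, 6 in clusters on chromosome 1 and 4 elsewhere in the genome. A level floor, the median over all genes, kept 35 members for a test on all 8 arrays, 34 for values within LNCaP and 33 for values within DU145. Histone genes of 1 class have near-identical coding sequences, so a probe set named for 1 gene may also take up transcripts of its copies.

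Histones package DNA: pairs of H2A, H2B, H3 and H4 form the nucleosome core, and H1 binds the linker between cores. Most genes of the clusters are transcribed in S phase, when new DNA is wrapped, and their transcripts end in a stem-loop bound by SLBP in place of a poly(A) tail. The factor NPAT, switched on by cyclin E and CDK2, drives their transcription, and their RNA is degraded when DNA replication stops. A few members, among them H1-2, H1-10, H2AC6, H2BC5, H2BC12 and H2BC21, are known to make polyadenylated transcripts as well or only. These do not depend on S phase in the same way.

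The classes carry different promoter elements, which are described here because many members had differences of the same sign. RefSeq promoter windows (GRCh38.p14, 250 bases before to 50 bases after the gene start) were at hand for 54 of the 59 members. Searched on both strands, the octamer ATTTGCAT, which binds OCT1, stood in 10 of 13 H2A and 13 of 16 H2B windows, in 0 windows of the other classes, and in 1.8% of all 27305 windows. The counts of H2A and H2B are not independent, for the octamer and for the other motifs below. This is because 9 pairs of H2A and H2B genes lie head to head with 215 to 248 bases between their starts. The genes of a pair share most of the window, so 1 match can be counted for both. The CCAAT box stood in 13 of 13 H2A, 16 of 16 H2B, 6 of 6 H3, 8 of 9 H1 and 3 of 10 H4 windows, against 35.7% of all windows. The letters GGTCCG, core of the H4 element known as site II, stood in 9 of 10 H4 windows against 11.2% of all, and AAACACA, the H1 box, in 7 of 9 H1 windows against 5.76% of all. The E2F site TTTCGCGC stood in 5 H2A, 5 H2B and 1 H3 windows, against 0.546% of all windows, and the TATA box TATAAA in 4 H1, 10 H2A, 12 H2B, 4 H3 and 5 H4 windows, against 12% of all. A CCAAT match and a GGTCCG match overlapped in 3 member windows (H2BC21, H2AC20 and H3C7), and no other motifs overlapped each other in the members' windows. A match is a description of the window only.

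The windows of 5 genes to which the results return are printed 5′ to 3′. H2BC14 lies at chr6:27814772-27815071 on the plus strand, with the octamer and CCAAT boxes in capitals. H1-5 lies at chr6:27867539-27867838 on the minus strand, with H1 boxes and CCAAT boxes in capitals. H4C8 (chr6:26285485-26285784, minus strand), H4C5 (chr6:26204360-26204659, plus strand) and H4C13 (chr6:27873485-27873784, minus strand) have the core of site II in capitals.
H2BC14: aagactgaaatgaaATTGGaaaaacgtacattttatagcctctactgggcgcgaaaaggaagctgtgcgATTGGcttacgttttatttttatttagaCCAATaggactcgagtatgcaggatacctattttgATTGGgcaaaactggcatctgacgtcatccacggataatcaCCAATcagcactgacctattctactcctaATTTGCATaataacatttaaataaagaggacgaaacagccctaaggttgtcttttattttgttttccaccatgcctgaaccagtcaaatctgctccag
H1-5: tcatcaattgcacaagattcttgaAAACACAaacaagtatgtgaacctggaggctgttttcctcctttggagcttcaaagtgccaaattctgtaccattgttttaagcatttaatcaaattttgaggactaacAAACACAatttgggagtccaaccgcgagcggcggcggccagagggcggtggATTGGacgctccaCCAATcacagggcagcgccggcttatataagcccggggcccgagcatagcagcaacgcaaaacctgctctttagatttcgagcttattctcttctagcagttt
H4C8: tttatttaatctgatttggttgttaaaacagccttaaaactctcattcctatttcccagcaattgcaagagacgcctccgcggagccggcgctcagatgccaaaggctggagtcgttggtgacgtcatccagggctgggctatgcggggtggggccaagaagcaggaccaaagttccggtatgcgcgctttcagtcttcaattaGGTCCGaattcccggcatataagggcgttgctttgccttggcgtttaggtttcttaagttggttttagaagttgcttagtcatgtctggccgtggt
H4C5: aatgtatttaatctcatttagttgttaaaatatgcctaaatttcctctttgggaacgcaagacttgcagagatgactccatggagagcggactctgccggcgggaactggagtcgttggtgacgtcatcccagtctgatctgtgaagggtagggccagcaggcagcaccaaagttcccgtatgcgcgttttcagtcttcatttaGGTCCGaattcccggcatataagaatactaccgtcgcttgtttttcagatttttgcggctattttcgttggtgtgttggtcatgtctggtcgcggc
H4C13: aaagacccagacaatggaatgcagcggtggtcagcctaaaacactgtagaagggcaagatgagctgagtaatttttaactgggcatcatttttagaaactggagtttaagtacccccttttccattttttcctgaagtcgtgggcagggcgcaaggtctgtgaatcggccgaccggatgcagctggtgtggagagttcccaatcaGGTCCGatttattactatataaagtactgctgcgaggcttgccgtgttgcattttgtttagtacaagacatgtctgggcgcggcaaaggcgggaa
The H2BC14 window held the octamer once and the CCAAT box 5 times, with 1 E2F site and 1 TATA box left in small letters. The letters of this TATA box read on the opposite strand, nearer the start of the neighbouring gene H2AC14 than that of H2BC14. The H4C13 window also held 1 TATA box and 1 CCAAT box in small letters. H2AC14, the head-to-head neighbour of H2BC14, has its start 245 bases from that of H2BC14. The H1-5 window held 2 H1 boxes and 2 CCAAT boxes. Among the H4 windows, H4C5 and H4C8 were identical over 70.4% of aligned columns, H4C13 and H4C8 over 47.5%, and H4C13 and H4C5 over 51.2%.

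TET2, the targeted gene, stood at 7.89 with siTET2, against 9.01 with siControl, in LNCaP, and at 6.60 with siTET2, against 7.85 with siControl, in DU145, and it fell in the fit common to both lines (-1.18, limma adjusted p = 0.0178). The lines carried their own markers: 6 or 7 of 7 LNCaP markers exceeded the array median in LNCaP and 1 in DU145, while 10 of 11 DU145 markers did so in DU145 and 1 in LNCaP. Immune markers exceeded it for 1 of 7 genes and fibroblast markers for 0 or 1 of 7. Array medians over all probe sets were 7.10 to 7.17 in LNCaP and 6.59 to 6.66 in DU145, and values are therefore compared within a line.

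With siTET2, most histone genes above the floor were lower than with siControl in both lines, but only H2BC14, a gene of core histone H2B, fell by the test. The common effect was asked with limma over all 8 arrays, with construct and cell line as terms, so the spread is the departure of each array from 1 construct effect in both lines. Of the 35 members tested, 29 lay above the floor of each line. The others (H2AC16, H2AC17, H2BC11, H2BC17, H4C5 and H4C13) lay below the floor of 1 line and passed through their level in the other. Of all 35, 30 had a difference below 0, against 50.1% of all 9209 genes, and the median was -0.32, against -0.0002 over all genes. Without LNCaP siControl the median was -0.13. After adjustment over all genes, 1 member fell and 0 rose, where 0.347% of all genes fell and 0.0326% rose. At an unadjusted p below 0.05, 18 members were lower and 1 higher, against 8.27% and 5.47% of all genes. In these bulk samples, fewer cells in S phase and less histone RNA per cell cannot be told apart.

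H2BC14 stood at 12.11 with siTET2, against 12.70 with siControl, and at 12.72 with miR-29b, against 12.58 with nc, in LNCaP. In DU145 it stood at 9.89 with siTET2, against 10.98 with siControl, and at 10.72 with miR-29b, against 10.75 with nc. The siTET2 array was the lowest of each line. The common log2 difference was -0.84, with an SE of 0.123 (limma adjusted p = 0.0353). This call was lost with nc as the control (limma adjusted p = 0.0840), without the level floor (limma adjusted p = 0.181), without a line term (limma adjusted p = 0.9999), with quantile normalization (limma adjusted p = 0.0518) and when any array other than LNCaP siTET2 was left out (limma adjusted p from 0.0610 to 0.339). H2AC14, its head-to-head neighbour, was named after its values were seen and lay below the floor. It stood at 7.05 with siTET2, against 7.96 with siControl, in LNCaP and at 4.83 with siTET2, against 6.14 with siControl, in DU145. In a fit without the floor its common difference was -1.11 (limma adjusted p = 0.110). Over all 9 head-to-head pairs, both genes were below 0 with siTET2 in 7 pairs in LNCaP and in 6 in DU145. Most members were below 0 in each line, and several genes of these pairs lay below the floor. Whether the genes of a pair move together was not tested.

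**Figure D1:**
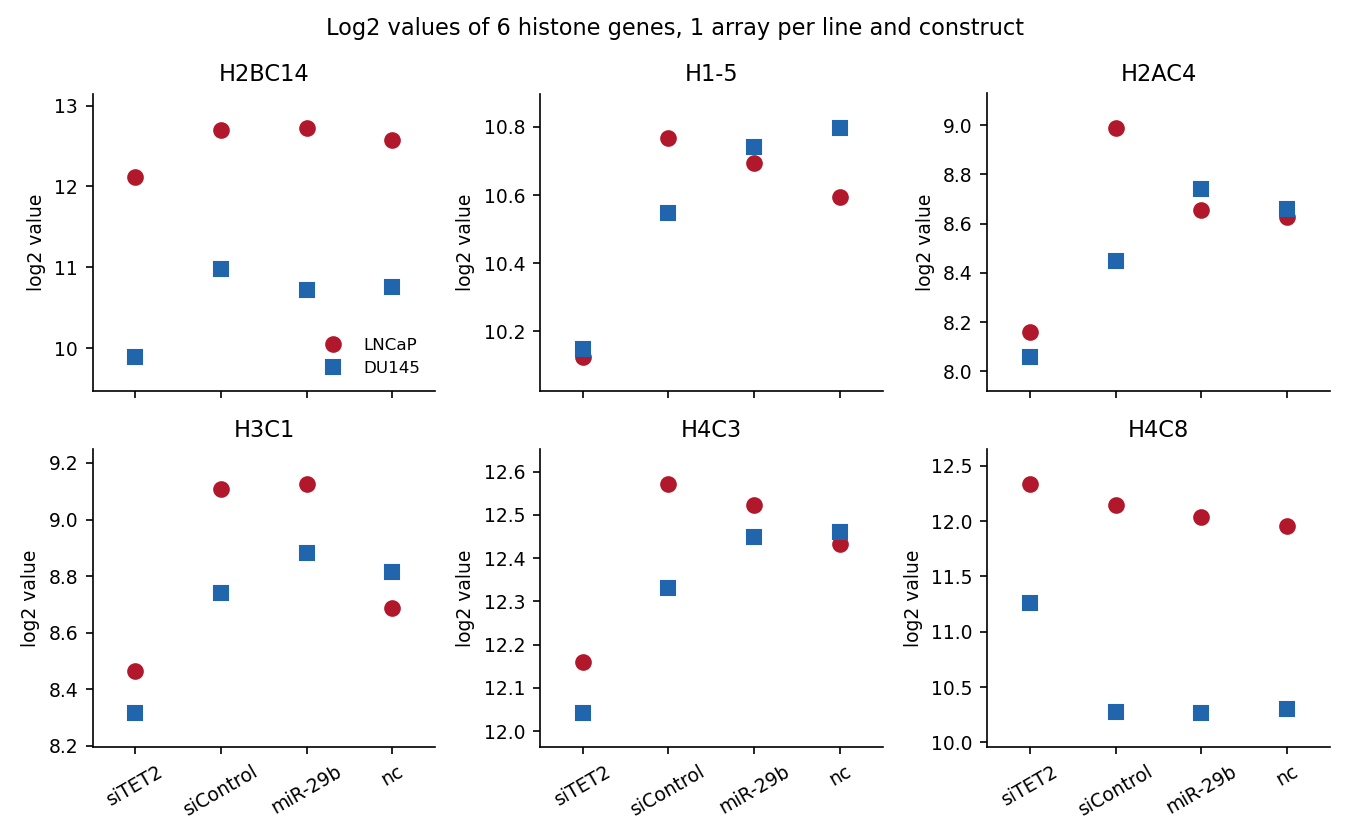
Log2 values (vertical axis, 1 scale per panel) of 6 histone genes on the 4 arrays of LNCaP (circles) and DU145 (squares), with constructs on the horizontal axis. H2BC14, H1-5, H2AC4, H3C1 and H4C3 have their lowest value with siTET2 in each line, and H4C8 has its highest there, at 12.34 in LNCaP and 11.26 in DU145.

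The linker histone genes varied among themselves. H1-5 stood at 10.12 with siTET2, against 10.77 with siControl, and at 10.69 with miR-29b, against 10.59 with nc, in LNCaP. In DU145 it stood at 10.15 with siTET2, against 10.55 with siControl, and at 10.74 with miR-29b, against 10.80 with nc. Within each line the siTET2 array was the lowest, and the common difference was -0.52 (SE 0.110, limma adjusted p = 0.0887). Against the mean of both controls it was -0.54 and passed the threshold (limma adjusted p = 0.0467), where 0.738% of all genes fell. In that contrast 2 members were called (H2BC14 and H1-5), and 0 with no floor, with no line term, or when either nc array, either siControl array or the DU145 siTET2 array was left out. H1-4 differed by -0.10 in LNCaP and -0.10 in DU145. H1-2, which also makes a polyadenylated transcript, differed by -0.34 in LNCaP, where it stood at 10.26 with siTET2, against 10.60 with siControl, but by -0.01 in DU145. H1-10, a linker histone gene outside the clusters, differed by 0.02 in LNCaP and -0.11 in DU145. The testis and oocyte genes H1-6, H1-7 and H1-8, and also H1-1 and H1-3, were below the floor set over the 8 arrays. These 5 genes differed by 0.11 to 0.27 in LNCaP and by -0.15 to 0.11 in DU145. The H1 median was -0.10 in each line over the genes above the floor.

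Of the core histone genes, H2A members above the floor of the line were below 0 in 9 of 9 cases in LNCaP (median -0.27) and in 9 of 9 in DU145 (median -0.16). Over all genes, 46.6% were below 0 in LNCaP and 53.1% in DU145. In the common fit 9 of 10 were below 0, the exception being H2AC17 at 0.02, which lay below the floor in DU145 and differed by 0.14 there. H2AC4 stood at 8.16 with siTET2, against 8.99 with siControl, and at 8.65 with miR-29b, against 8.63 with nc, in LNCaP. In DU145 it stood at 8.06 with siTET2, against 8.45 with siControl, and at 8.74 with miR-29b, against 8.66 with nc. The siTET2 array was the lowest of each line. Its common difference of -0.61 (SE 0.145) had a limma adjusted p of 0.128. H2AC12 differed by -0.75 in LNCaP, where siControl was 0.49 above nc, and by -0.16 in DU145. H2AC15 differed by -0.18 in LNCaP and -0.38 in DU145. The H2A genes nearest 0 were H2AC17 (-0.10) and H2AC20 (-0.10) in LNCaP, and H2AC11 (-0.04) and H2AC6 (-0.04) in DU145.

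H2B members lay on both sides of 0. Of 11 above the floor in LNCaP, 10 were below 0 (median -0.38), with H2BC7 at -0.72 and H2BC11 at -0.63. In DU145, 5 of 9 were below 0, against 53.1% of all genes (median -0.07), with H2BC14 at -1.09 and H2BC7 at -0.28. H2BC7 stood at 10.32 with siTET2, against 11.05 with siControl, and at 10.56 with miR-29b, against 10.46 with nc, in LNCaP. There the siControl array was the highest, and siTET2 was -0.14 from nc. The genes highest with siTET2 were H2BC21 (0.25) and H2BC8 (-0.02) in LNCaP, and H2BC12 (0.45) and H2BC5 (0.21) in DU145. Of these, H2BC21, H2BC12 and H2BC5 are known to make polyadenylated transcripts.

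The H3 genes above the floor lay below 0 in both lines. H3C10 stood at 10.73 with siTET2, against 11.42 with siControl, and at 11.15 with miR-29b, against 11.36 with nc, in LNCaP, and its DU145 difference was -0.17. H3C1 differed by -0.64 in LNCaP and -0.42 in DU145, with a common difference of -0.53 (SE 0.121, limma adjusted p = 0.108). H3C11 differed by -0.49 in DU145, where it stood at 11.53 with siTET2, against 12.02 with siControl, and at 11.96 with miR-29b, against 12.15 with nc. H3C2 differed by -0.53 in LNCaP and -0.13 in DU145. For these 4 genes the siTET2 array was the lowest of its line in both lines. The class medians were -0.59 over 4 genes in LNCaP and -0.23 over 5 genes in DU145, where H3C8 also passed the floor.

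Of the H4 genes, H4C14, H4C3 and H4C2 were below 0 in both lines, and H4C8 stood against its class. H4C3 stood at 12.16 with siTET2, against 12.57 with siControl, and at 12.52 with miR-29b, against 12.43 with nc, in LNCaP. In DU145 it stood at 12.04 with siTET2, against 12.33 with siControl, and at 12.45 with miR-29b, against 12.46 with nc. The siTET2 array was the lowest in each line, and the common difference was -0.35 (SE 0.0945, limma adjusted p = 0.166). H4C14 differed by -0.52 in LNCaP and -0.22 in DU145, and H4C13 by -0.59 in DU145, the line in which it passed the floor. H4C8 stood at 12.34 with siTET2, against 12.15 with siControl, and at 12.03 with miR-29b, against 11.95 with nc, in LNCaP. In DU145 it stood at 11.26 with siTET2, against 10.27 with siControl, and at 10.27 with miR-29b, against 10.30 with nc. The siTET2 array was the highest in each line, and in DU145 the other 3 arrays lay together. The common difference of 0.59 (SE 0.169) had a limma adjusted p of 0.180. Leaving out LNCaP siTET2 moved it to 0.93, with 1 siTET2 array whose spread is assumed to be that of the other groups (limma adjusted p = 0.0155), and leaving out DU145 siTET2, under the same assumption, moved it to 0.25 (limma adjusted p = 0.461).

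**Figure D2:**
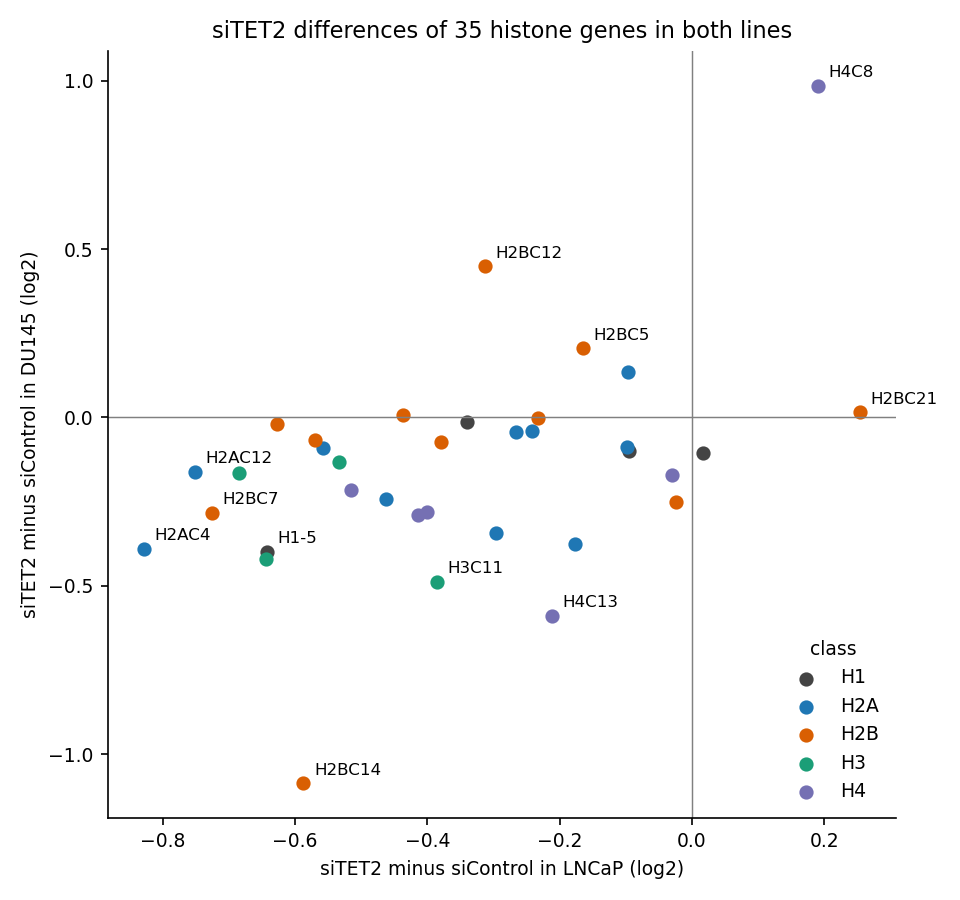
Difference of siTET2 from siControl (log2) in LNCaP (horizontal axis) and in DU145 (vertical axis) for the 35 members above the floor, coloured by class. Most points lie in the lower left, H2BC14 is lowest in DU145 at -1.09, H4C8 is highest there at 0.99, and H2BC12 lies at -0.31 in LNCaP and 0.45 in DU145.

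Within LNCaP, 8 of 34 members were at least 1.5-fold lower with siTET2 than with siControl and 0 were at least 1.5-fold higher, against 2.27% and 0.293% of all genes. These were H2AC4, H2AC12, H2BC7, H3C10, H3C1, H1-5, H2BC11 and H2BC14, the last at -0.59 and so close to the threshold of 0.585. In all, 30 of 34 members were below 0, against 46.6% of all genes, with a median of -0.36. Set against nc in place of siControl, 1 member was at least 1.5-fold lower (H3C10, -0.63) and 0 higher, against 0.456% and 1.01% of all genes, 29 of 34 were below 0, against 45.6%, and the median was -0.26. Within DU145, 2 of 33 members were at least 1.5-fold lower (H2BC14 and H4C13) and 1 higher (H4C8), against 1.52% and 0.814% of all genes, and 28 of 33 were below 0, against 53.1%, with a median of -0.17. Set against nc, 7 members were at least 1.5-fold lower and 1 higher, against 2.41% and 1.39% of all genes, 31 of 33 were below 0, against 57.9%, and the median was -0.40. The differences from siControl and from nc share the siTET2 array. With no level floor, 46 of 59 members were below 0 in LNCaP and 45 of 59 in DU145, where 41.1% and 48.4% of all genes were.

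The histone genes also differed between the siControl and nc arrays, upward in LNCaP and downward in DU145. In LNCaP the members were higher with siControl than with nc, with a median of 0.12 and 25 of 34 above 0, where 45.8% of all genes were below 0. Past 1.5-fold there was 1 member higher, where 1.53% of all genes were, and 0 lower, where 0.369% were. That was H2BC9, named after its values were seen, at 9.37 with siControl against 8.76 with nc. In DU145 they were lower with siControl, with a median of -0.14, 31 of 33 below 0 against 57.6% of all genes, and 0 past 1.5-fold, against 0.152% of all genes lower and 0.141% higher. Tested over both lines, limma called 0 members and 0 of all genes for siControl minus nc, with 2 members lower at an unadjusted p below 0.05 (H2AC20, -0.25, and H1-10, -0.24) and 0 higher, against 6.29% and 6.87% of all genes. The median was -0.03, with 22 of 35 below 0, against 52.1% of all genes.

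Against nc in place of siControl, limma called 0 members in the common fit, where 0.163% of all genes fell and 0.0326% rose. At an unadjusted p below 0.05, 21 members were lower and 1 higher, against 10.0% and 8.94% of all genes. The median was -0.32, with 32 of 35 below 0, against 53.3% of all genes.

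The rank of the siTET2 array among the 4 arrays of its line uses both control arrays. It was lowest for 27 of 35 members in LNCaP, against 23.2% of all genes, and for 28 of 35 in DU145, against 38.4%. For 25 of 35 it was lowest in both lines, against 13.7% of all genes. By class these were 3 of 4 H1, 8 of 10 H2A, 5 of 11 H2B, 4 of 4 H3 and 5 of 6 H4 genes. Some of these, among them H4C5 and H4C13, lay below the floor in 1 line. Among the 29 members above the floor of each line, 20 were lowest with siTET2 in both, against 14.4% of such genes. H4C8 was the member that was highest with siTET2 in both lines, as 12.1% of all genes were. The siControl array was highest for 21 of 35 members in LNCaP, against 26.6% of all genes, and the nc array for 24 of 35 in DU145, against 35%.

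With miR-29b, no histone gene passed the test and the members' medians were close to 0. In the fit common to both lines limma called 0 members and 0 of all genes (0%), and at an unadjusted p below 0.05 there were 0 members, against 2.65% of all genes lower and 1.09% higher. The median over the 35 members was -0.02, with 21 below 0 against 51.7% of all genes. In LNCaP the median was 0.02, with 13 of 34 below 0 against 44.2% of all genes, and 0 members passed 1.5-fold, against 0.239% of all genes lower and 0.51% higher. In DU145 the median was -0.07, with 26 of 33 below 0 against 65.5% of all genes, and 0 members passed 1.5-fold, against 0.0543% lower and 0.0652% higher. The 9 H2B genes above the floor in DU145 were all below 0, with a median of -0.18. H3C1 stood at 9.13 with miR-29b, against 8.69 with nc, in LNCaP (0.44), and at 8.88 with miR-29b, against 8.81 with nc, in DU145 (0.07). H2BC4 differed by -0.13 in LNCaP and -0.41 in DU145, H2BC8 by -0.12 and -0.38, H2BC21 by -0.21 and -0.20, and H3C10 by -0.22 and -0.28. H2AC12 (0.23) and H2AC11 (0.20) were the highest H2A genes in LNCaP, but they lay at -0.08 and -0.22 in DU145. There H2AC13 was the lowest H2A gene, at -0.27. Of the H4 genes, H4C3 (0.09) and H4C8 (0.08) were highest and H4C2 (-0.09) lowest in LNCaP, and H4C4 lay at -0.35 and H4C14 at 0.12 in DU145. Among all H1 genes above the floor the values ran from -0.10 to 0.10 in LNCaP and from -0.13 to -0.02 in DU145.

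**Figure D3:**
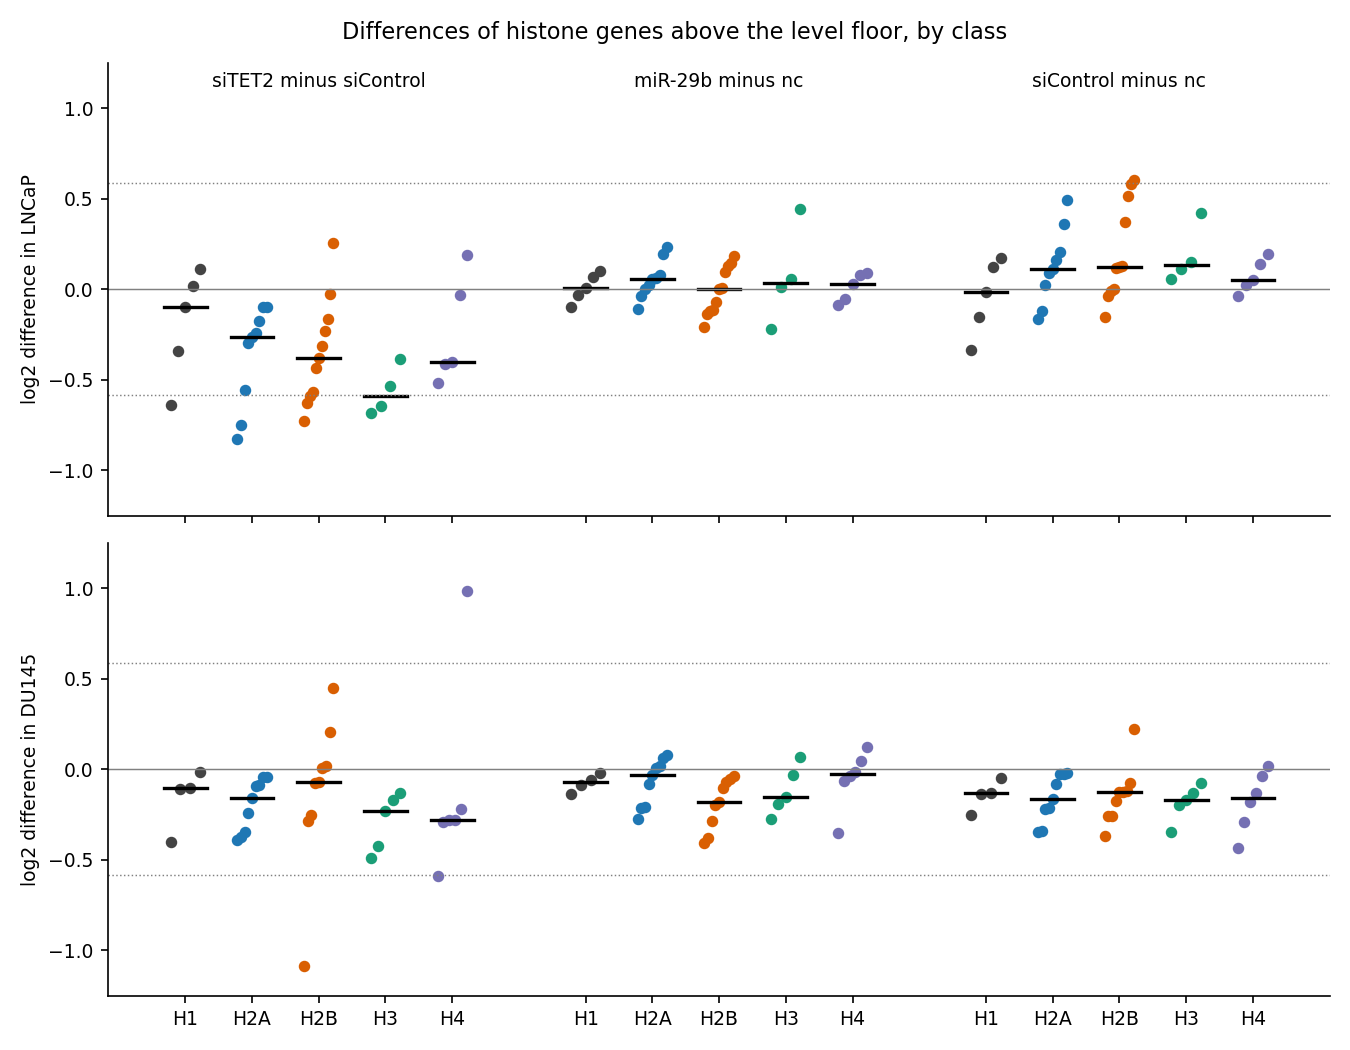
Log2 differences of the members above the floor in LNCaP (upper panel) and DU145 (lower panel), with a point per gene, the class on the horizontal axis, a black bar at the class median and dotted lines at 1.5-fold. All class medians for siTET2 minus siControl lie below 0, those for miR-29b minus nc in LNCaP lie near 0, and those for siControl minus nc in DU145 lie below 0.

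The siTET2 effect was then set against the miR-29b effect in the same fit. Limma called 0 members and 0 of all 9209 genes for the difference of the effects, with 13 members lower and 2 higher at an unadjusted p below 0.05, against 7.08% and 5.98% of all genes. The median over the 35 members was -0.20, with 26 below 0, against 49.2% of all genes. The lowest were H2BC14 (-0.89, SE 0.174, limma adjusted p = 0.146) and H3C1 (-0.79, SE 0.171, limma adjusted p = 0.164). H4C8 was highest (0.57, SE 0.239, limma adjusted p = 0.369).

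The 6 members named above as known to make polyadenylated transcripts, a list that may not be complete, were all above the floor. With siTET2 their median common difference was -0.01, with 3 of 6 below 0, against 50.1% of all genes. After adjustment 0 were called, where 0.347% of all genes fell and 0.0326% rose. At an unadjusted p below 0.05 there were also 0, against 8.27% of all genes lower and 5.47% higher. The values ran from -0.18 for H1-2 to 0.14 for H2BC21. H2BC12 stood at 12.65 with siTET2, against 12.97 with siControl, and at 12.63 with miR-29b, against 12.45 with nc, in LNCaP. In DU145 it stood at 12.58 with siTET2, against 12.13 with siControl, and at 12.20 with miR-29b, against 12.25 with nc. The siControl array was high in LNCaP and the siTET2 array in DU145. H2AC6 differed by -0.27 and -0.04 in LNCaP and DU145, and H2BC5 by -0.16 and 0.21. The difference between these 6 and the other members was not tested.

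By location, the 30 tested members of the cluster on chromosome 6 had a median common difference of -0.32 with siTET2, with 26 below 0. Over all genes, 50.1% were below 0. The 4 of the main cluster on chromosome 1 (H2AC20, H2AC21, H2BC21 and H4C14) had a median of -0.21, with 3 below 0. H2AC21 was at -0.32 (limma adjusted p = 0.168). The H2AC25 and H2BC26 pair on chromosome 1 lay below the floor.

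Of the 59 members, 2 H4 genes differed most in level between the lines. H4C5 lay between 11.80 and 11.84 on the 4 LNCaP arrays and between 4.43 and 4.69 on the 4 DU145 arrays. H4C13 lay between 4.57 and 4.78 in LNCaP and between 9.80 and 10.68 in DU145. The low values lie under the array medians, so the size of the difference is not given. With each array centred on its median, these were the 2 of 59 members at least 16-fold apart between the lines, where 1.36% of all genes were. Raw values of other members also lay apart between the lines, whose array medians differ. H3C8 lay between 5.47 and 5.80 in LNCaP and between 8.02 and 8.42 in DU145. H2BC14 lay between 12.11 and 12.72 in LNCaP and between 9.89 and 10.98 in DU145. The windows of both H4 genes, printed above, hold the core of site II.

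**Figure D4:**
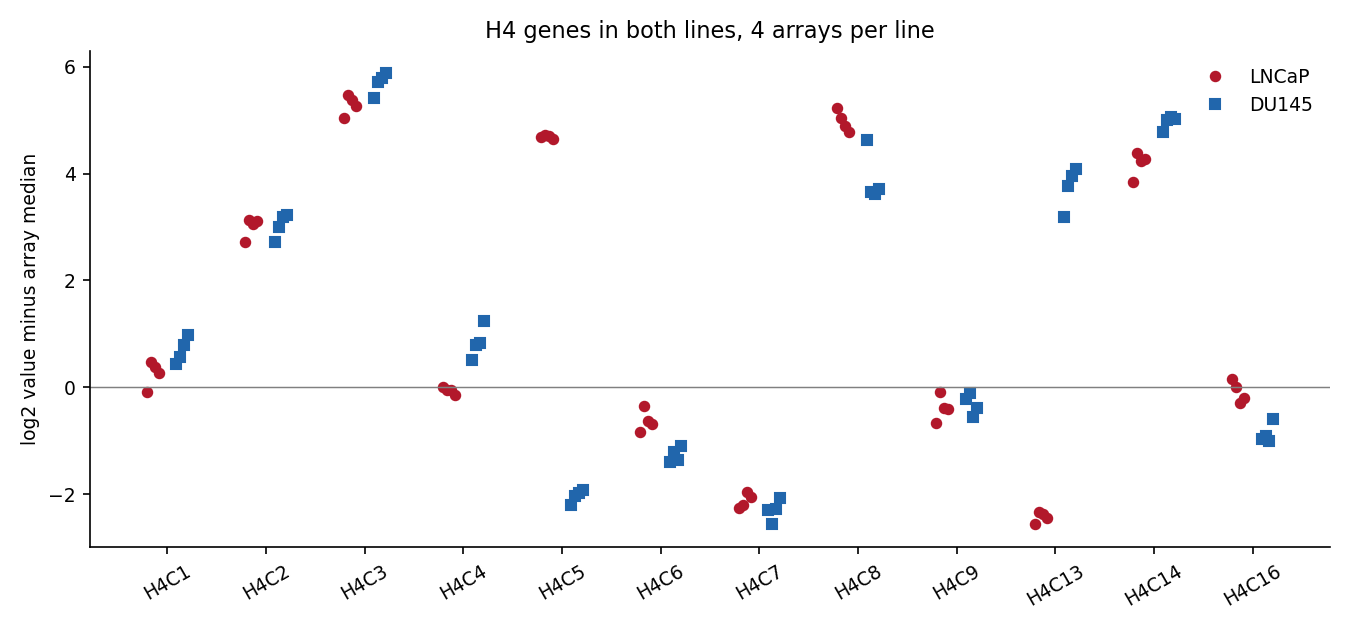
Log2 value minus the array's median over all probe sets (vertical axis) for the 12 H4 genes on 4 LNCaP arrays (circles) and 4 DU145 arrays (squares), in the order siTET2, siControl, miR-29b and nc within each group of points. H4C5 lies above 0 in LNCaP and below it in DU145, H4C13 the other way round, and H4C8 is highest with siTET2 in each line.

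Genes that act with the histone clusters were read in the same fit. For siTET2 minus siControl, 50.1% of all genes were below 0 there, 0.347% fell and 0.0326% rose. Factors of histone transcription and pre-mRNA processing had a median of -0.08 over 17 genes with siTET2, 13 of them below 0 and 0 called. ERI1, which trims the histone stem-loop, was at -0.40 (limma adjusted p = 0.190), CCNE2, a cyclin E, at -0.40 (limma adjusted p = 0.407), and CPSF3 and CPSF2, of the cleavage complex, at -0.27 and -0.24. Histone chaperones had a median of -0.17 over 20 genes, 14 below 0 and 0 called, with HJURP, the chaperone of CENPA, at -0.39 and ASF1B and CHAF1B, which hand new H3 and H4 to replicated DNA, at -0.34 and -0.33. Histone variants listed as replication-independent, a name that may not hold for every gene such as H2AX, had a median of -0.05 over 8 genes. Of these, 7 were below 0 and 0 were called (H1-10 is on this list and among the 35 histone genes as well), with H2AX at -0.23 and H2AZ1 at -0.09.

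The S phase and G2/M lists were read beside the histone genes. Of 39 S phase genes, 39 were below 0 in the common fit, with a median of -0.36, 0 called and 27 lower at an unadjusted p below 0.05. Over all genes, 50.1% were below 0, 8.27% were lower at that unadjusted p and 0.347% fell after adjustment. GINS1, of the replicative helicase, was at -0.59 (limma adjusted p = 0.0680) and MCM10, a replication initiation factor, at -0.57. Of 31 G2/M genes, 31 were below 0, with a median of -0.42, and CDK1, the mitotic kinase, fell (-0.83, limma adjusted p = 0.0211). In LNCaP the S phase median was -0.52 and the G2/M median -0.68, beside -0.36 for the histone genes. In DU145 they were -0.17 and -0.17, beside -0.17. Against nc, the medians of S phase, G2/M and histone genes were -0.32, -0.35 and -0.26 in LNCaP and -0.21, -0.18 and -0.40 in DU145. With miR-29b, the S phase and G2/M medians were 0.16 and 0.20 in LNCaP, beside 0.02 for the histone genes, and 0.01 and 0.02 in DU145, beside -0.07. The part of the cell cycle in the histone values was not tested.

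**Figure D5:**
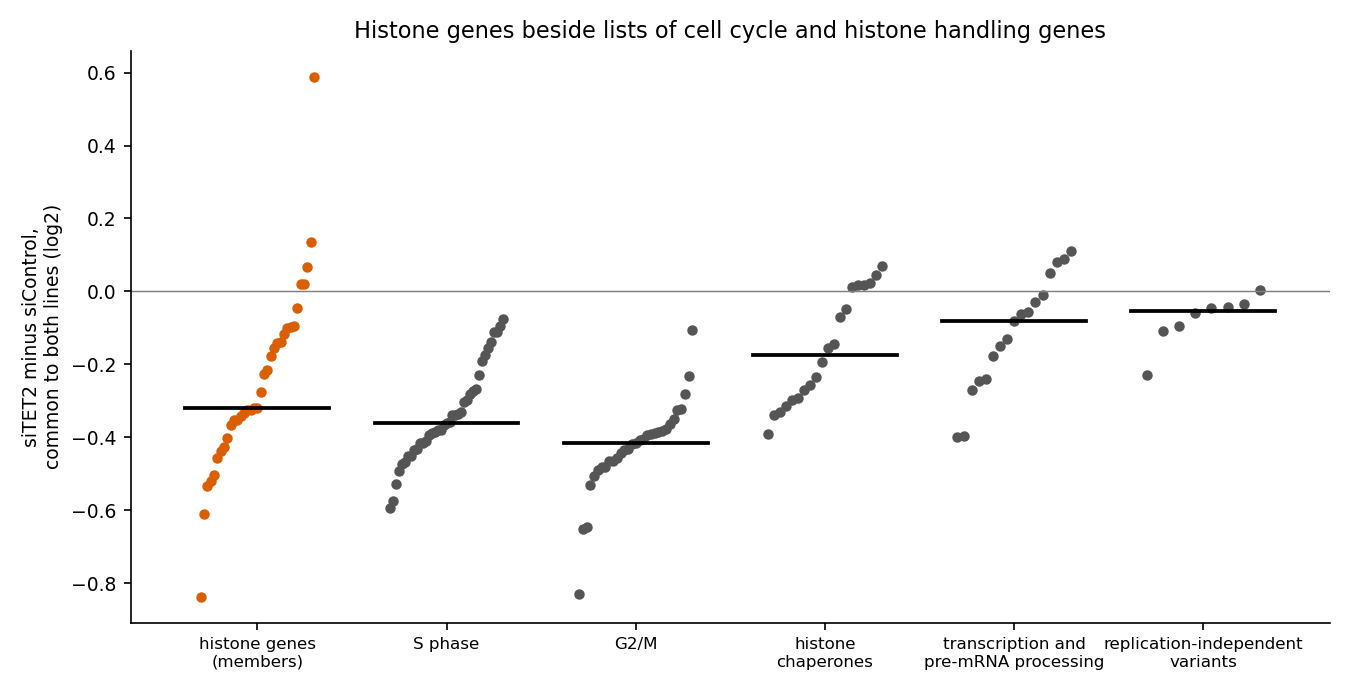
Common log2 difference of siTET2 from siControl (vertical axis) for the 35 histone genes and for 5 lists of related genes, with a point per gene, sorted within each list, and a black bar at the median. The medians run from -0.32 for the histone genes, -0.36 for S phase and -0.42 for G2/M genes to -0.05 for the variants listed as replication-independent, a list that shares H1-10 with the histone genes.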

How the data were processed

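Total RNA of 8 samples was labelled with biotin and read on Affymetrix arrays, per the labels' protocols. The deposited table holds log2 values for 33297 probe sets, made by the authors with Affymetrix Expression Console and RMA, per the submitters' processing notes. The log2 scale is read from the values, and which arrays were normalized together is not given in the sources used here. Levels of different probe sets were not compared.

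Probe sets were named through GEO's platform table (19460 probe sets with 1 symbol, 1754 with several, 12083 not listed), checked against RefSeq (19429 matched). The probe set with the highest mean stood for a gene. Differences of 2 arrays within a line have no replicate and no p-value and were counted at 1.5-fold (0.585) among genes whose mean over the line's 4 arrays reached the 50th percentile. Common effects were tested with limma 3.58.1 (R 4.3.3; lmFit and eBayes, terms for construct and cell line, Benjamini-Hochberg adjustment over 9209 genes, threshold 0.05). No label names separate cultures, so a p-value reflects only the spread between these arrays, in which technical variation and responses that differ between the lines cannot be told apart. The fit was tested on simulated data. The number of arrays limits the precision.

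Members named with values were drawn from those called in a common fit, per class the 2 lowest and 2 highest of each treatment difference above the floor, all H1 genes, the polyadenylated members and up to 4 genes of each related list. Not all of these were named for each difference, and H2AC21 was named outside this rule. H4C13 and H4C5 levels between the lines and H2AC14 were looked at after values were seen. The members and the lists were chosen with earlier results of these data known. Alternatives were other floors, all probe sets, a trend, no line term, quantile normalization, centring, the other control, the mean of both controls, a 2-fold threshold and each array left out, and, added after the data were seen, array ranks (also among genes above the floor of each line), levels between lines and all 59 members without a floor.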

Additional observations from a re-analysis of the deposited data

Results flagged for a closer look

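H2BC12, a gene of core histone H2B known to make a polyadenylated transcript, differed in opposite directions in the 2 lines. With siTET2 it was at -0.31 from siControl in LNCaP and at 0.45 in DU145, each value from 1 pair of arrays. The difference between the lines was not tested. Against nc it was 0.20 in LNCaP and 0.33 in DU145.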

How the results depend on the processing

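The direction of the siTET2 median over the members was kept in every alternative run, and the number of called genes was not. In the common fit of siTET2 minus siControl, 1 member was called, against 0 with no floor, with no term for cell line, with quantile normalization or with nc as control, 2 with the stricter floor or the mean of both controls, and 4 with a trend. Leaving out 1 array gave 0 to 2 calls and medians from -0.3854 to -0.1288, the value nearest 0 coming without LNCaP siControl. Leaving out LNCaP siTET2 gave 3 calls against nc and 3 against the mean of both controls. For siControl minus nc, miR-29b minus nc and the difference of the siTET2 and miR-29b effects, leaving out 1 array gave 0 calls, with medians from -0.1136 to 0.0922 for siControl minus nc and from -0.3371 to -0.0717 for the siTET2 effect minus the miR-29b effect. In LNCaP, the 8 members past 1.5-fold with siTET2 became 4 with the stricter floor, 1 against nc, 2 against the mean of both controls and 0 at 2-fold. In DU145, the 3 members became 8 against nc, where the median was -0.40, and 1 at 2-fold. For siControl minus nc in LNCaP, the 1 member became 2 with no floor, with the floor on the higher array or with centring, and 0 with the stricter floor, quantile normalization or 2-fold. In DU145 the 0 members became 1 with no floor. The H3 median of miR-29b in DU145 turned from -0.15 to 0.14 against siControl. The cause of these changes was not tested. No paired analysis was possible because each line and construct has 1 array, so no replicate number is shared beyond the cell line, which is already a term of the common fit.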

Other observations

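The 20 probe sets with several symbols held 17 distinct sets of values and were not named. With siTET2, 15 of the 17 were below 0 in LNCaP (median -0.18) and 14 in DU145 (median -0.09). Of all genes above the floor, 46.6% and 53.1% were. No floor was set for the 17. For 4 of them that carry only H3 symbols the values ran from -0.41 to -0.01 in LNCaP and from -0.10 to -0.06 in DU145. For 3 that carry only H4 symbols they ran from -0.48 to -0.18 in LNCaP and from -0.12 to 0.18 in DU145. With miR-29b, 9 of the 17 were below 0 in LNCaP (median -0.01) and 11 in DU145 (median -0.05). Of all genes above the floor, 44.2% and 65.5% were.

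Of the 3 matches that are a pseudogene or an antisense RNA, H2BC19P stood at 7.68 with siTET2, against 8.30 with siControl, in LNCaP, and at 7.36 with siTET2, against 7.09 with siControl, in DU145. H3C7, an H3 gene below the floor, differed by -0.79 in LNCaP and 0.23 in DU145. Both were named after their values were seen, and neither difference was tested.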
